A study of Mus musculus with 12 samples.

Results

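Chromatin accessibility around 35 myeloid lineage genes was examined in hematopoietic stem cells (HSCs). The genes encode transcription factors, cytokine receptors, granule proteins, subunits of the NADPH oxidase and surface receptors of granulocytes and monocytes. Accessible regions were taken from ATAC-seq, which marks open DNA by the insertion of adapters with a transposase. Peak summits with a score of 3 or more were kept, windows of 250 bp on each side of them were merged over 12 libraries, and a region was assigned to a gene when it lay in the gene body or within 10 kb of it. In this way 105 of the 71006 regions of the whole series belonged to the 35 genes (35 of 35 were found in the GENCODE annotation of mm10). Of these, 27 held a summit within 1 kb of an annotated transcription start of a member (start regions) and 14 lay at the start of another gene. The other 64 were distal to all starts in the basic set of this annotation. Among them, a region upstream of Spi1 lay within 1 kb of the start of longer transcripts that the basic set leaves out.

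The libraries came from bone marrow HSCs of C57BL/6 mice, sorted as Lin-, c-Kit+, Sca-1+, Flk2-, CD48- and CD150+. There were 3 libraries in each of 4 groups, which were young WT and young Mlkl-/- mice at 3 months and aged WT and aged Mlkl-/- mice at 18 months. Mlkl encodes the pseudokinase that executes necroptosis, and the allele is lost in all cells of the animal, not in blood cells alone. Each library was a pool of HSCs from several mice, and pools of young mice held more animals than pools of aged mice. No other treatment or allele was given for any group. HSCs from aged animals and from animals without Mlkl were compared with young and WT HSCs to ask whether accessibility near these genes moved with age or genotype.

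HSCs express few mature myeloid genes, but many loci that are used after commitment already hold open enhancers or starts in stem cells, which is known as lineage priming. PU.1 (Spi1) and C/EBPα (Cebpa) open and activate such loci in granulocyte and monocyte progenitors, and C/EBPε (Cebpe) follows in maturing granulocytes. With age, the output of HSCs in the mouse shifts towards myeloid cells.

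Some of the member regions are shown as sequence because the results turn on them. The first 3 lie directly upstream of the starts of Fcgr1, Cd33 and Cebpa, the start regions with the 3 lowest p-values for age. The others are centred on the summits of distal regions near Spi1, Cebpe and Ltf that were called in all 12 libraries. All were read from the reference genome GRCm38.p6 (mm10), 5′ to 3′ on the strand given. None overlaps a coding sequence or UTR in the annotation used, and non-coding exons were not checked. Capitals mark matches to the searched motifs.
Fcgr1 start, chr3:96293970-96294101, minus strand: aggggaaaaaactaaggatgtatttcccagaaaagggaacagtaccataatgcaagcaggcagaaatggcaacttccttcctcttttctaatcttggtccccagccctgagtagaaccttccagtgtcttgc
Cd33 inner start, chr7:43533172-43533352, minus strand: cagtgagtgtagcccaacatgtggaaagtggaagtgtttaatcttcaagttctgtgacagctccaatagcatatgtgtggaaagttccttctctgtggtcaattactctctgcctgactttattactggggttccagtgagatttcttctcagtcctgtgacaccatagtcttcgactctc
Cebpa start, chr7:35119143-35119292, plus strand: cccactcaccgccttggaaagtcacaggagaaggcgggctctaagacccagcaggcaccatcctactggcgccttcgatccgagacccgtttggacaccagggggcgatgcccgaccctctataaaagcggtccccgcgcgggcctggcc
Spi1 upstream region, chr2:91082961-91083161, plus strand: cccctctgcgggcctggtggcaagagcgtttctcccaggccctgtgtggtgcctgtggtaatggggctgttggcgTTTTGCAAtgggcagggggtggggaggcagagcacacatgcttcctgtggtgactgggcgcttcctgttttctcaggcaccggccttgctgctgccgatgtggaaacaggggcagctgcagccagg
Cebpe downstream region, chr14:54705854-54706054, plus strand: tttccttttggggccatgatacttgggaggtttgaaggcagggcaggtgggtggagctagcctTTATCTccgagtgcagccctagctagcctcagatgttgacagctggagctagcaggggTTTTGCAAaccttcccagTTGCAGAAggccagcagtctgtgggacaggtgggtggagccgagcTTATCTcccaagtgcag
Ltf downstream region, chr9:111046288-111046488, plus strand: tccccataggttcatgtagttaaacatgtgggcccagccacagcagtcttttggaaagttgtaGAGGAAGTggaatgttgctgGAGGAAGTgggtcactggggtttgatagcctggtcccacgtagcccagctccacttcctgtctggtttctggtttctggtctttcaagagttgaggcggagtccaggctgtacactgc

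Around the highest summit of each region, 100 bp to either side were searched for motifs on both strands. PU.1 was searched for as the letters GAGGAAGT and C/EBP as TTGCNNAA. For RUNX factors the letters searched for were TGTGGTT, and for GATA factors they were AGATAA. The AP-1 search used the letters TGANTCA, and the search for IRF factors used the letters GAAANNGAA. The printed stretch near Ltf held the PU.1 letters at 2 places, and that near Cebpe held the C/EBP and the GATA letters at 2 places each. The stretch near Spi1 held the C/EBP letters once. No searched letters were found in the stretches upstream of Fcgr1, Cd33 and Cebpa, which says only that these letters are not in these windows. Over all 105 member regions, 14 (13.3%) held the PU.1 letters, against 6.22% of the 71006 regions of the series. The C/EBP letters were found in 11 member regions (10.5%, against 8.10%), the RUNX letters in 11 (10.5%, against 10.3%) and the GATA letters in 9 (8.57%, against 9.28%). The AP-1 letters were in 10 (9.52%, against 10.2%) and the IRF letters in 9 (8.57%, against 7.37%). Overlap between motifs was allowed, and the shares are a description of the letters.

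The score of a summit is the −log10 of the q-value of its peak. Read counts are not part of the lists. Depth is therefore unknown, and counting error could not be given. Lists held 35714 to 61495 summits with a score of 3 or more, and aged lists were longer (55250 ± 5349, against 44691 ± 7498 in young lists, SD, n = 6). Each list was therefore also cut to its 35714 summits of highest score (equal-length lists). The lowest score kept by this cut ran from 3.01 (young Mlkl-/- replicate 3) to 9.02 (aged Mlkl-/- replicate 3). A score that counted as a call in one list could therefore fall below the cut in another. Regions were ranked in each equal-length list and ranks were turned into normal scores, where 0 is the middle of the ranking and a region without a call has a value between −0.82 and −0.75. Such a score is a relative rank and not an amount of accessibility. Since each library is a bulk sample, fewer cells with an open region and less opening per cell cannot be told apart. Between 6 and 10 of 14 HSC marker genes had a called start in each equal-length list, and 5 (Kit, Mecom, Hlf, Meis1 and Mycn) had one in all 12. Slamf1, which encodes the CD150 used in the sort, had none in any list. Of 10 markers of mature myeloid cells, 8 had no called start in any equal-length list, among them Ly6g, Adgre1 and Ccr2. Cd68 and Cx3cr1 gave 1 to 2 called starts in each of the 3 young WT lists and 0 in the other 9 lists, and their part in the results was not tested. Of the T cell markers 7 of 8 were at 0 in all lists, as were 5 of 8 erythroid markers.

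Few of the members had a start that was called in every library. Among the 35 members, 4 (Cebpa, Klf4, Csf2ra and Cyba) had a start region called in all 12 equal-length lists, which is 11.4% of members against 42.8% of 21911 protein-coding genes. Of 48 other myeloid genes, 14 (29.2%) had such a start. These shares were not tested as a set. In the full lists these numbers were 8 members (22.9%) and 50.0% of genes, with Irf8, Cebpd, Spi1 and Csf2rb added. A start region was found in at least 1 full list for 23 members (65.7%, against 66.3% of protein-coding genes). The other 12 members were Cebpe, Csf1r, Mpo, Elane, Prtn3, Ctsg, Ms4a3, S100a8, S100a9, Camp, Ngp and Cybb. No region of any kind was found in the window of 5 members, namely the granule protease gene Ctsg, the progenitor marker Ms4a3, the cathelicidin gene Camp, S100a9 and Cybb, the catalytic subunit of the phagocyte oxidase.

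**Figure D1:**
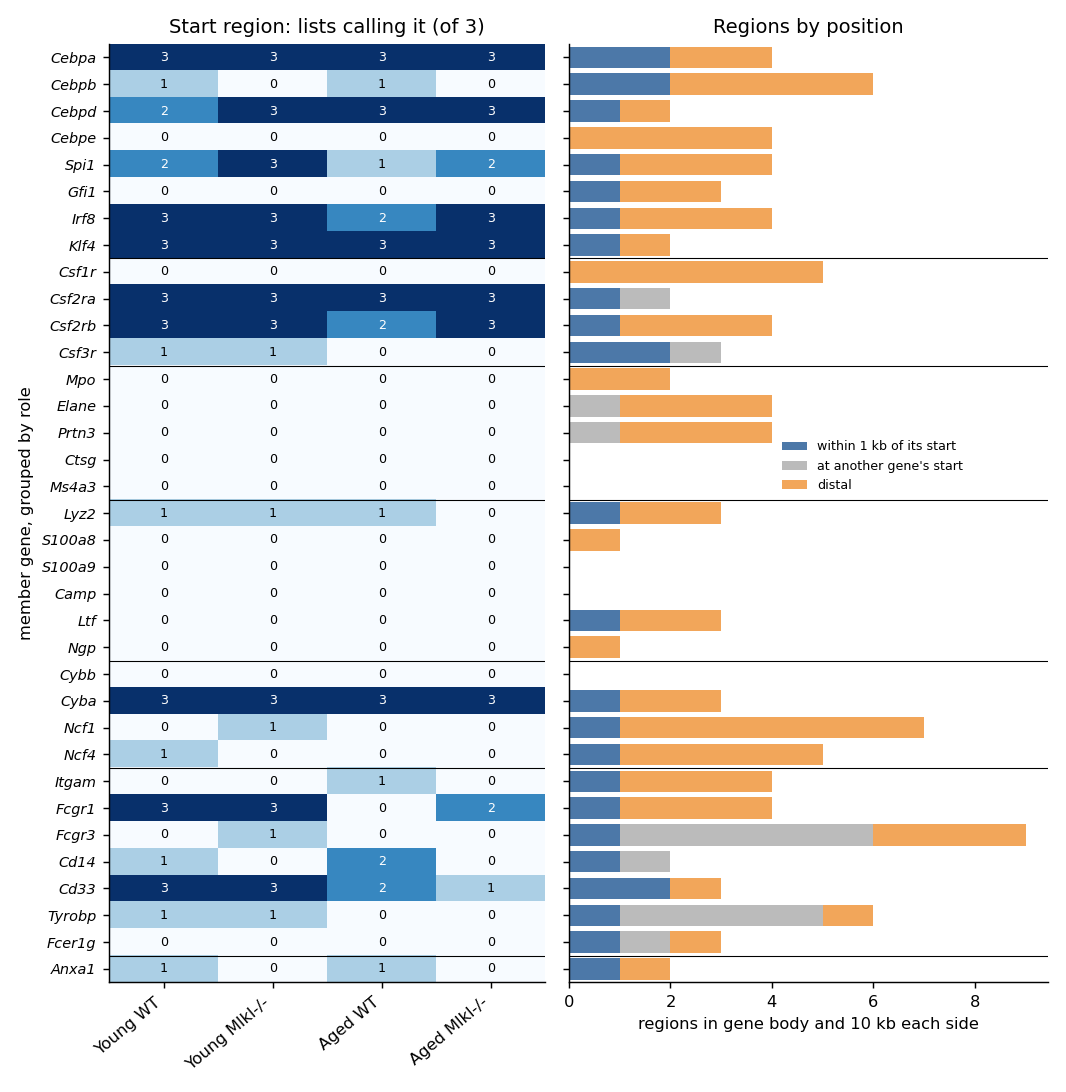
Left, the number of equal-length lists of each group (of 3) in which the start region of each of the 35 members was called (0 where no start region was found). Right, the number of regions within the gene body and 10 kb on each side, by position. The starts of Cebpa, Klf4, Csf2ra and Cyba read 3 in all 4 groups, and no row of the primary granule genes (Mpo to Ms4a3) has a start region.

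Of the 8 members whose start was listed in all 12 full lists, 5 encode transcription factors. There were 8 factors among the members, and 7 had a start region in at least 1 full list. The start region of Klf4, a factor of monocyte differentiation (chr4:55532173-55533261), was the highest of them, with a mean normal score of 0.81 ± 0.30 (SD, n = 12). The start regions of Cebpa (chr7:35118781-35119517) and Irf8, a factor of monocytes and dendritic cells (chr8:120735853-120736539), followed with 0.60 ± 0.29 and 0.47 ± 0.45. Cebpd (chr16:15886518-15888350) had 0.31 ± 0.42 and Spi1 (chr2:91096364-91097490, summit in the UTR of exon 1) −0.05 ± 0.57. Each of these means differed from the next by less than its SD, so that neighbours in this order were not separated. Cebpb, which acts in emergency granulopoiesis, had start regions that were called in 1 or 2 equal-length lists. Gfi1, a repressor needed for neutrophils, had a start region in 1 full list and in no equal-length list, and its 2 distal regions were called in 3 full lists and 1 full list. Cebpe had no start region.

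Among the cytokine receptors the start of Csf2ra, the α chain of the GM-CSF receptor (chr19:61225659-61227842, summit in the UTR of exon 1), had the highest start score of all members. Its values were 0.95, 0.90 and 1.47 for young WT, 0.92, 0.94 and 0.94 for young Mlkl-/-, 1.02, 0.94 and 1.08 for aged WT and 0.77, 1.05 and 0.97 for aged Mlkl-/- libraries. All groups overlapped, and the change with age was −0.05 ± 0.14 (SE, limma adjusted p = 0.881). Csf2rb, the shared β chain of the GM-CSF and interleukin receptors (chr15:78325509-78326243), was called at its start in 12 full and 11 equal-length lists (0.34 ± 0.46, SD, n = 12). Csf2rb has a close paralog next to it, Csf2rb2, and how reads were shared between the copies is not given in the sources used here. Csf3r, the G-CSF receptor, had a start region in 5 full lists and 2 equal-length lists, and its only strong region (chr4:126046659-126047561, 1.38 ± 0.29) was the start of Mrps15. Csf1r, the M-CSF receptor, had no start region but had 5 regions in its window.

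Starts of granule genes were rarely called. None of the 5 primary granule and progenitor genes had a start region in any list. Elane and Prtn3, neighbouring genes for neutrophil serine proteases, shared 4 regions. The first lay in an intron of Prtn3 (chr10:79877666-79878352), was called in 12 full and 11 equal-length lists and had a normal score of 0.18 ± 0.45. Another lay downstream of Elane at the start of the predicted gene Gm19810 (chr10:79889310-79889849, 0.32 ± 0.27, called in all 12 equal-length lists). Mpo, for myeloperoxidase, had 2 weak distal regions, the stronger of them listed in 1 of the young WT lists, all 3 of the young Mlkl-/- lists and none of the 6 aged full lists. Of the 6 secondary granule and antimicrobial genes, Lyz2 (lysozyme) had a start region in 8 full lists and 3 equal-length lists, and Ltf (lactoferrin) in 2 full lists. Ngp had 1 distal region in 6 full lists, and S100a8 had 1 distal region in 1 full list.

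For the NADPH oxidase, the start of Cyba, the membrane partner of Cybb (chr8:122432463-122433398, summit in coding exon 1), was called in all 12 equal-length lists (0.20 ± 0.31). The starts of Ncf1 and Ncf4, which encode cytosolic subunits, were called in 5 and 3 full lists. Surface receptors and adaptors each had a start region in at least 1 full list. Only those of Fcgr1 and Cd33 were called in more than 3 equal-length lists (8 and 9). Start regions of Cd14 (9 full lists), Tyrobp (4), Itgam (3), Fcgr3 (2) and Fcer1g (1) were weak. Fcer1g, the signalling chain of Fc receptors, shows how neighbours enter the window. The strongest of all member regions (chr1:171222301-171222876, 2.51 ± 0.31) lay 11.7 kb downstream of its start, at the start of Tomm40l. Anxa1, for an anti-inflammatory annexin, had a start region in 5 full lists and a distal one in 10.

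Several distal regions near myeloid genes were open in every library. Of 105 member regions, 18 (17.1%, against 21.9% of the catalogue) were called in all 12 equal-length lists, and 10 of these were distal, 4 were start regions and 4 were starts of other genes. The highest distal region lay 27.1 kb downstream of the start of Ltf, beyond its last exon (chr9:111046127-111046655). Its normal scores were 1.99, 1.82 and 2.45 for young WT, 2.73, 1.79 and 1.73 for young Mlkl-/-, 2.33, 1.82 and 2.17 for aged WT and 1.68, 2.04 and 2.07 for aged Mlkl-/- libraries, so that every group overlapped the others. Its mean of 2.05 ± 0.32 stood beside a start region of Ltf that no equal-length list held. The next lay 6.22 kb downstream of the start of Cebpe, outside the gene (chr14:54705679-54706251, 1.41 ± 0.23), again at a gene without a start region. The third was 13035 bp upstream of the start of Spi1 (chr2:91082799-91083352, 1.02 ± 0.21), where an enhancer of PU.1 is known. It lay in an intron of longer Spi1 transcripts that are not in the basic annotation and that begin within 1 kb of the summit.

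The upstream region of Spi1 gave 0.77, 0.98 and 1.20 for young WT, 1.09, 1.15 and 0.85 for young Mlkl-/-, 1.10, 0.75 and 1.20 for aged WT and 0.70, 1.39 and 1.04 for aged Mlkl-/- libraries. Its group means lay between 0.99 and 1.04, and the change with age was 0.02 ± 0.15 (SE, limma adjusted p = 0.950). Calls of the start region in equal-length lists numbered 2 for young WT, 3 for young Mlkl-/-, 1 for aged WT and 2 for aged Mlkl-/- HSCs, and its change with age was −0.47 ± 0.29 (limma adjusted p = 0.358). The upstream region is described here because it was called in all 12 lists, and the difference between the 2 regions was not tested.

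The fourth distal region lay in an intron of Csf1r, 2.86 kb downstream of the start (chr18:61108329-61108995, 0.98 ± 0.25), where an intronic enhancer of this gene is known. It was called in all 12 equal-length lists although the start of Csf1r was called in none. The fifth lay 7.37 kb upstream of Ncf1 (chr5:134236678-134237252, 0.80 ± 0.28). Both regions called in all 12 lists on either side of Cebpb lay in introns of its neighbours Tmem189 (chr2:167679776-167680738, 0.55 ± 0.22) and A530013C23Rik (chr2:167697781-167698386, 0.77 ± 0.24). The remaining 3 were downstream of Fcgr3 (chr1:171044221-171045211, 0.73 ± 0.39), downstream of Fcgr1 (chr3:96277702-96278728, 0.59 ± 0.29) and 7.96 kb downstream of the start of Cebpa (chr7:35126977-35128059, 0.45 ± 0.29).

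Regions called in at least 3 equal-length lists were tested. This left 52 of 105 member regions (49.5%, against 53.4% of the catalogue) at 26 of 35 members, with 12 start regions, 10 starts of other genes and 30 distal regions. No region of Ctsg, Ms4a3, Camp, S100a9, Cybb, Gfi1, Mpo, S100a8 or Itgam could be tested. Since a region with calls in 1 age group alone passes this filter through that group, counts over the tested regions are given as a description.

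With age, no member region passed the threshold of an adjusted p under 0.01. Over both genotypes the count was 0 of 52, against 3.27% of 37886 regions tested in the series. At an adjusted p under 0.05, 2 member regions passed, both lower in aged HSCs, against 3.7% of all regions lower at that level. These were the start regions of Fcgr1, the high-affinity IgG receptor, and of Cd33, a sialic acid-binding receptor of myeloid cells. At an unadjusted p under 0.05 there were 8 member regions (15.4%), all of them lower with age. Of all regions, 22.5% reached this level in either direction, 11.1% lower and the rest higher. Of the 52 tested, 38 (73.1%) had a change below 0, against 51.1% of all regions, and the median change was −0.20, against −0.01. A region with calls in young lists alone must have a change below 0, so these shares rest in part on the filter. Among regions called in all 12 equal-length lists, 12 of 18 member regions (66.7%) had a change below 0, against 53.7% of all such regions, and the median was −0.05, against −0.02. None of these shares was tested as a set.

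The start region of Fcgr1 (chr3:96293587-96294269, summit 32 bp upstream of the start) had normal scores of −0.07, 0.66 and 0.55 in young WT and 0.86, 0.99 and 0.30 in young Mlkl-/- libraries. In aged WT it was called in no equal-length list, and the summit scores in the full lists were 0, 0 and 4.57 (0 where no summit was listed), against 6.41, 14.1 and 10.4 in young WT. Aged Mlkl-/- libraries gave normal scores of −0.07, −0.81 and 0.73. All 3 aged WT libraries therefore lay below all young libraries, whereas the aged Mlkl-/- libraries overlapped the young ones. The share of all regions with such a separation in WT is not given here. The change with age over both genotypes was −0.96 ± 0.26 (SE, limma adjusted p = 0.0233), that in WT was −1.16 ± 0.37 (limma adjusted p = 0.103) and that in Mlkl-/- was −0.77 ± 0.37 (limma adjusted p = 0.335). The difference between these changes was 0.39 ± 0.52 (limma adjusted p = 0.980).

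The region of Cd33 (chr7:43532905-43533645) had its summit 81 bp upstream of the inner start of the gene, in an intron of the longest transcript. Values were 0.28, 0.76 and 0.53 for young WT, 0.57, 0.68 and 0.41 for young Mlkl-/-, −0.77, −0.00 and −0.03 for aged WT and −0.81, −0.81 and 0.23 for aged Mlkl-/- libraries. Every aged value lay below every young value, which held for 1 of the 52 tested member regions and for 1.75% of all regions. The change with age was −0.90 ± 0.25 over both genotypes (SE, limma adjusted p = 0.0234), −0.79 ± 0.35 in WT and −1.02 ± 0.35 in Mlkl-/- (limma adjusted p = 0.281 and 0.134). The outer start of Cd33 was called in 1 young Mlkl-/- list.

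Of the other 6 regions with an unadjusted p under 0.05, the start of Cebpa was called in all 12 lists. It gave 0.71, 0.78 and 0.98 for young WT, 0.69, 0.95 and 0.91 for young Mlkl-/-, 0.29, 0.34 and 0.29 for aged WT and 0.72, 0.13 and 0.39 for aged Mlkl-/- libraries. The 3 aged WT libraries lay below all 6 young ones, and aged Mlkl-/- replicate 1 lay among the young values. For this separation, too, the share over all regions is not given. The change with age was −0.48 ± 0.16 (SE, limma adjusted p = 0.0728) and did not pass. A neighbouring region upstream of the same start (chr7:35117975-35118761) was listed in no young full list and in all 6 aged full lists, but in 1 equal-length list, so it was too weak to be tested. The start of Csf2rb had a change of −0.51 ± 0.23 (limma adjusted p = 0.193), with group means of 0.56 ± 0.06 for young WT, 0.62 ± 0.15 for young Mlkl-/-, 0.09 ± 0.85 for aged WT and 0.07 ± 0.14 for aged Mlkl-/- HSCs (SD, n = 3).

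The remaining 4 were away from the starts of members. In Ncf1, a region in coding exon 7 (chr5:134224949-134225583) was called in 6 young and 3 aged equal-length lists (−0.70 ± 0.26, limma adjusted p = 0.0987). The region at the start of Hcst near Tyrobp (chr7:30419301-30420060), a neighbour that encodes another adaptor, was called in 4 young and no aged equal-length list but in 6 young and 5 aged full lists (−0.63 ± 0.23, limma adjusted p = 0.103). A region downstream of Ncf4 (chr15:78267789-78268357) was called in 5 young lists and 1 aged list (−0.62 ± 0.26, limma adjusted p = 0.153). A further intronic region of Csf1r (chr18:61120475-61121027) was called in 5 young and 2 aged lists (−0.58 ± 0.26, limma adjusted p = 0.181). The NADPH oxidase genes had 8 tested regions, and all 8 had a change below 0, of which 0 passed an adjusted p under 0.05.

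Changes above 0 were smaller. The start of Cebpd, a factor induced by inflammatory cytokines, had the largest among start regions. It gave 0.02, −0.76 and 0.60 for young WT, 0.35, 0.25 and 0.07 for young Mlkl-/-, 0.56, 0.56 and 0.88 for aged WT and 0.45, 0.09 and 0.61 for aged Mlkl-/- libraries, and the ages overlapped. Its change was 0.44 ± 0.22 over both genotypes (SE, limma adjusted p = 0.249), 0.72 ± 0.32 in WT and 0.15 ± 0.32 in Mlkl-/- (limma adjusted p = 0.285 and 0.864). A region 3.99 kb upstream of Csf2ra, at the start of a predicted gene (chr19:61232123-61232667), had a change of 0.47 ± 0.26 (limma adjusted p = 0.294). For Klf4, Irf8, Cyba, Lyz2 and Cd14, changes of the start regions lay between −0.24 and 0.09, and none passed.

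**Figure D2:**
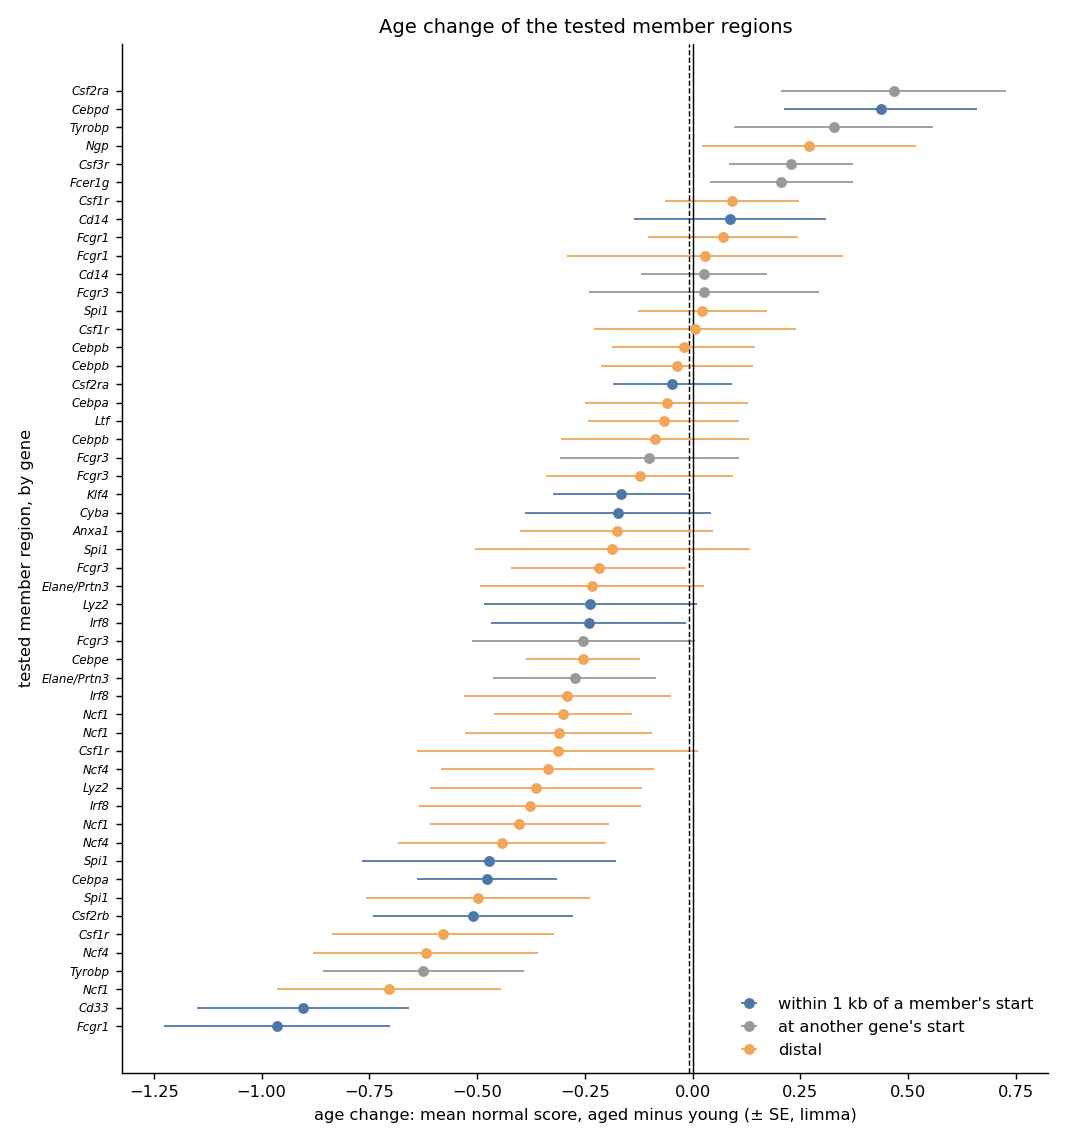
Change with age over both genotypes (horizontal axis, mean normal score of 6 aged minus 6 young libraries) of the 52 tested member regions, in order of size. Points are limma estimates and bars their SE, colours give the position of the region, the solid line is 0 and the dashed line the median of all 37886 tested regions (−0.01). Of the 52 points, 38 lie below 0, with the starts of Fcgr1 and Cd33 lowest.

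**Figure D3:**
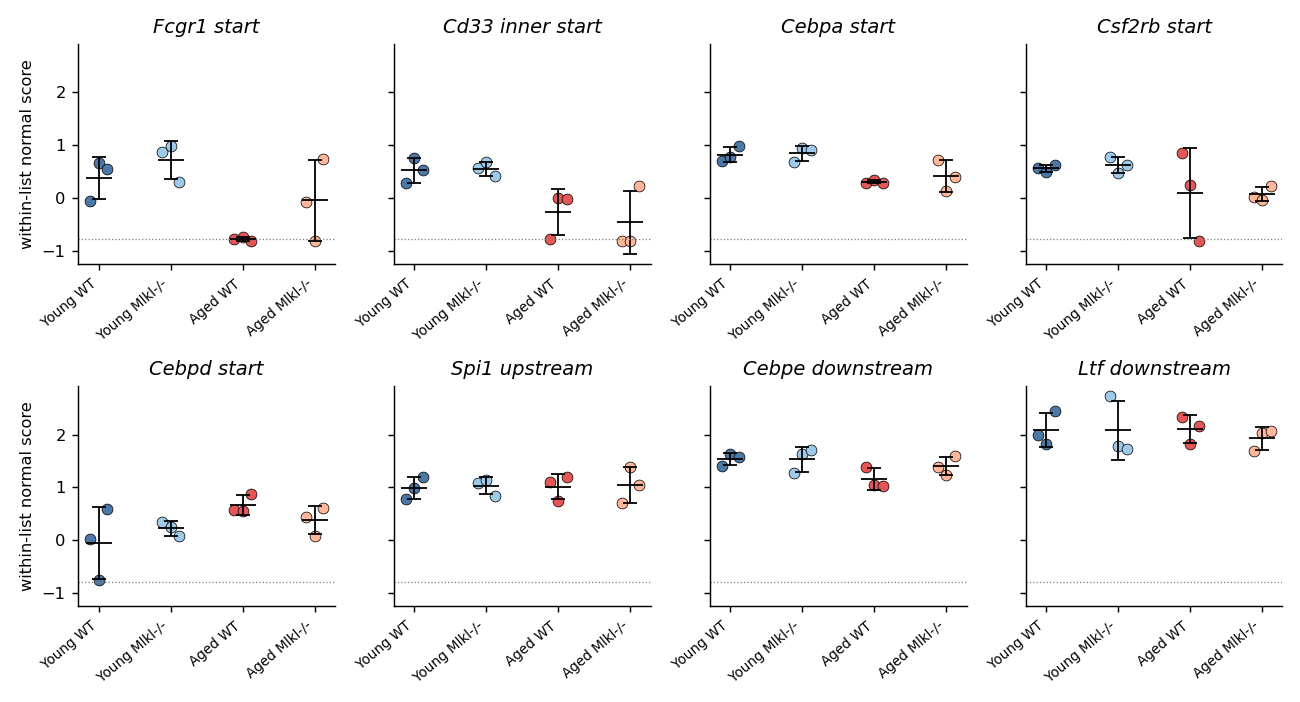
Normal scores in equal-length lists of 8 member regions in every library (points, coloured by group), with the mean and SD of each group (n = 3). The dotted line is the mean value of a region without a call. Aged values of Cd33 lie below all young values, the aged WT values of Fcgr1 lie on the dotted line, and the groups overlap for the distal regions of Spi1, Cebpe and Ltf.

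Counts of calls depended on the length of the lists. In equal-length lists, 44.3 ± 4.55 member regions were called in young libraries (range 37 to 49) and 34.8 ± 1.94 in aged libraries (range 32 to 37, SD, n = 6). By group the counts were 43.7 ± 6.11 for young WT, 45.0 ± 3.61 for young Mlkl-/-, 35.3 ± 2.08 for aged WT and 34.3 ± 2.08 for aged Mlkl-/- lists (SD, n = 3). The ages touched at 37, a value of young WT replicate 1 and aged WT replicate 3. In full lists the counts overlapped, with 55.8 ± 12.9 in young and 57.8 ± 6.11 in aged libraries. As a share of the regions called in the same equal-length list, member regions made up 0.151% in young libraries (range 0.127% to 0.170%) and 0.117% in aged libraries (range 0.105% to 0.123%), and these ranges did not overlap. In full lists they made up 0.153% ± 0.0136 in young and 0.130% ± 0.00521 in aged libraries, and the ranges (0.133% to 0.166% and 0.123% to 0.135%) overlapped. Distal regions followed the same pattern, with 24.3 ± 2.88 called in young and 18.2 ± 2.64 in aged equal-length lists, as did start regions with 12.2 ± 1.94 and 9.17 ± 2.23.

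**Figure D4:**
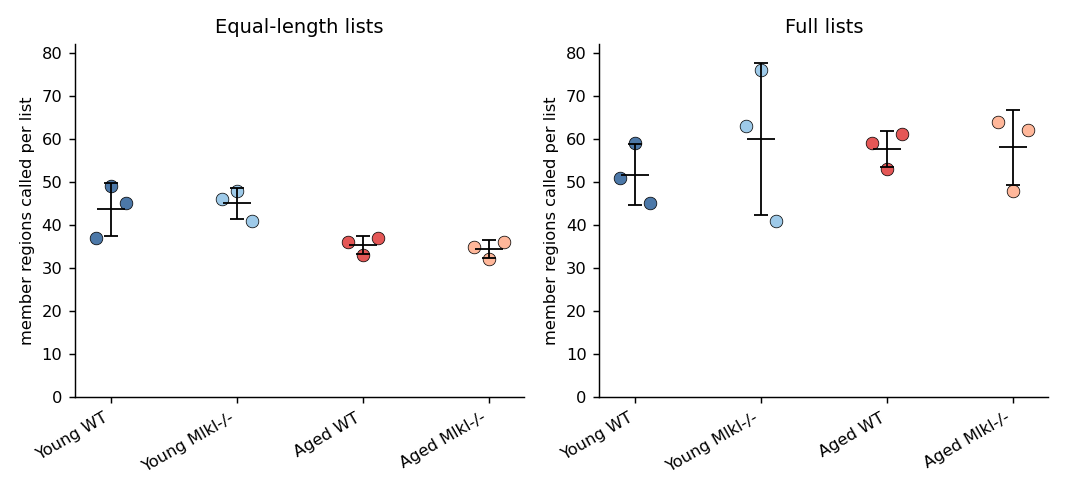
Number of the 105 member regions called per list (vertical axis) in each library, in equal-length lists (left) and in full lists (right), with the mean and SD of each group (n = 3). On the left the aged libraries lie at 32 to 37 and the young ones at 37 to 49, and on the right the ages overlap widely.

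Regions called in all 3 lists of 1 age and in none of the other were few. In WT these were the starts of Fcgr1 and of Hcst near Tyrobp, both called in young lists (2 of 105, against 1.15% of the catalogue). In Mlkl-/- it was the region downstream of Ncf4, again called in young lists (1 of 105, against 0.801%). The Hcst start was nevertheless listed in all 3 aged WT full lists, with scores of 7.598, 5.89 and 6.36, against 9.04, 5.63 and 4.64 in young WT. The lowest scores that counted as calls were 7.603, 6.69 and 7.18 in aged WT lists. In young WT lists they were 5.67, 5.44 and 3.88, so the pattern at Hcst depended on the cut. In equal-length lists no member region was called in all lists of an aged group and none of the young group of the same genotype, and none separated the genotypes at either age in this way. Full lists gave other regions. The second region upstream of Cebpa was listed in all aged and no young lists of both genotypes, and an intronic region of Zc3h18 near Cyba (chr8:122415451-122416060) was listed in 3 of 3 aged and 0 of 3 young WT lists. The region near Mpo in an intron of Lpo (chr11:87811381-87811947) went from 3 of 3 young to 0 of 3 aged Mlkl-/- lists. The region upstream of Fcgr3 (chr1:171070203-171070899) was listed in 3 of 3 young Mlkl-/- lists but in 0 of 3 of the young WT and 0 of 3 of the aged Mlkl-/- lists.

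Within genotypes no member region passed for age either. In WT the count was 0 of 52 at an adjusted p under 0.01 (limma, against 0.296% of all regions), with 6 regions at an unadjusted p under 0.05 (11.5%, against 14.9%), 5 lower and 1 (the start of Cebpd) higher. In Mlkl-/- it was 0 of 52 (limma, against 0.322%), with 5 at an unadjusted p under 0.05 (9.62%, against 14.8%), all lower. The genotypes share no libraries. Their age changes had the same sign in 35 of 52 member regions, 28 lower (53.8%, against 33.7% of all regions) and 7 higher (13.5%, against 30.7%), and Pearson's r across the 52 regions was 0.48, against 0.53 across all regions. Regions of a library are not independent replicates.

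**Figure D5:**
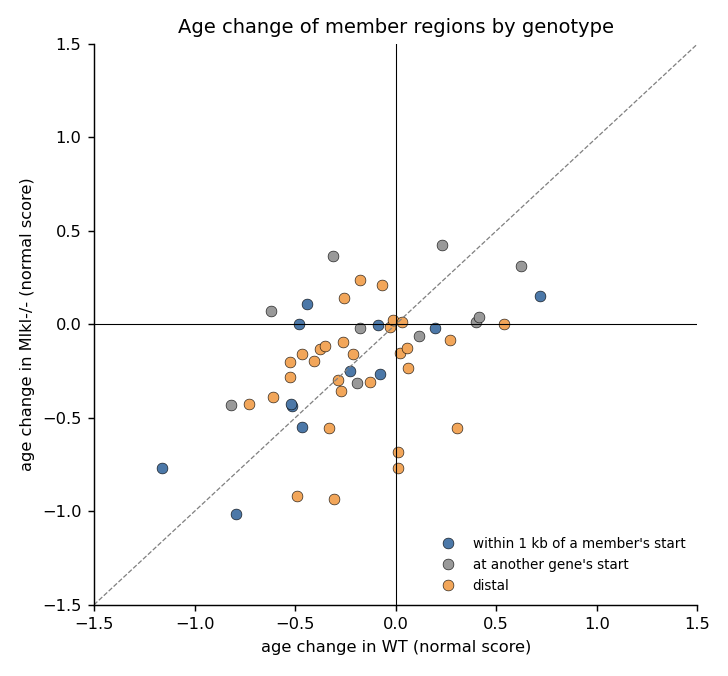
Change with age in WT (horizontal axis) and in Mlkl-/- HSCs (vertical axis), in normal score units, of the 52 tested member regions (points, coloured by position). The dashed line marks equal changes. In 28 regions both changes are below 0 and in 7 both are above 0. The start of Fcgr1 is the leftmost point and that of Cd33 the lowest.

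Loss of Mlkl was not associated with a detectable difference at the member regions. In the young, in the aged, over all libraries and for the difference of the age change between genotypes, 0 of 52 member regions passed an adjusted p under 0.01 (limma), and the share over all regions was 0% in each. At an unadjusted p under 0.05 there was 1 member region (1.92%) at 3 months, against 5.41% of all regions, 1 at 18 months, against 5.26%, and 1 over both ages, against 6.31%. For the difference of age changes it was 0, against 4.73%. The lowest adjusted p of a member region was 0.901 at 3 months, 0.894 at 18 months, 0.775 over both ages and 0.980 for the difference of age changes.

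At 3 months the smallest p was that of the start of Klf4, with values of 1.09, 1.24 and 1.13 in young WT and 0.79, 0.14 and 1.0 in young Mlkl-/- libraries. The Mlkl-/- values lay below the WT values, a separation whose share over all regions is not given here. The difference was −0.51 ± 0.22 (SE, limma adjusted p = 0.901). At 18 months the same region gave 0.71 ± 0.17 in WT and 0.75 ± 0.08 in Mlkl-/- libraries. The next were a region in an intron of Fcgr3 at the start of the microRNA gene Mir6546 (chr1:171063630-171065207, −0.68 ± 0.38) and one at the start of Nfkbid near Tyrobp (chr7:30422047-30422616, −0.57 ± 0.33, limma adjusted p = 0.906 for both).

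At 18 months the Tomm40l start near Fcer1g had the smallest p, with 2.93, 3.15 and 2.58 for aged WT against 2.16, 2.15 and 2.70 for aged Mlkl-/- libraries. These overlapped, and the difference was −0.55 ± 0.23 (limma adjusted p = 0.894). Fcgr1 had the next 2 regions by p. Its downstream region gave 0.38 ± 0.26 for aged WT against 0.87 ± 0.12 for aged Mlkl-/- libraries (0.49 ± 0.25, limma adjusted p = 0.894), and its start differed by 0.73 ± 0.37 (limma adjusted p = 0.894), and it was called in 2 of 3 Mlkl-/- and 0 of 3 WT lists at that age. For the difference of age changes, the 3 smallest p belonged to a region upstream of Fcgr3 (chr1:171070203-171070899, −0.86 ± 0.43), the Gm19810 start near Elane and Prtn3 (0.69 ± 0.38) and the start of Klf4 (0.55 ± 0.32, limma adjusted p = 0.980 for all 3).

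Other myeloid genes gave a comparison for the members. A list of 48 further genes of granulocytes and monocytes had 173 regions, of which 93 were tested at 37 genes. This list is not separate from the members, since 2 regions belong to both, of which 1 (the start region of Lyz2, near Lyz1) was tested. Of the 93 regions, 59 (63.4%) had a change below 0 with age, against 51.1% of all regions. The median change was −0.10, against −0.01. For age over both genotypes, 4 of the 93 passed an adjusted p under 0.01 (limma), 2 higher and 2 lower. The share over all regions was 3.27%, and the count at the members was 0 of 52. Higher in aged HSCs were an intronic region of Ctsc, the protease that activates granule proteases (chr7:88306593-88307146, 1.26 ± 0.23, SE, limma adjusted p = 0.00121), and an intronic region of Sirpa (chr2:129606242-129606824, 1.12 ± 0.22, limma adjusted p = 0.00282). Values did not overlap between ages at either, and the share of all regions with aged values above all young values is not given here. Equal-length lists held the Ctsc region in 6 of 6 aged and 0 of 6 young libraries, so it passed the filter through aged lists alone. Lower were an intronic region of Cx3cr1, a chemokine receptor of monocytes (chr9:120054720-120055364, −1.20 ± 0.20, limma adjusted p = 0.000708), and the Eif4a1 start near Cd68 (chr11:69671085-69672799, −0.67 ± 0.14, limma adjusted p = 0.00482). The ages overlapped at the Cx3cr1 region. At the Eif4a1 start every aged value (1.58 to 1.89) lay below every young value (2.08 to 2.82), which held for 1.75% of all regions. A region near Mmp8, a collagenase of neutrophil granules, passed an adjusted p under 0.05 (−0.71 ± 0.22, limma adjusted p = 0.0447). For genotype, 0 regions of this list passed 0.05 at 3 or at 18 months (limma). At an unadjusted p under 0.05 there were 7 (7.53%, against 5.41% of all regions) and 5 (5.38%, against 5.26%). The difference between the lists was not tested.

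Properties of the libraries also moved with age. Summits at starts of Y-linked genes were found in 3 of 6 young lists and 0 of 6 aged lists, and aged lists were longer. With the Y-linked summits as a covariate, the age change of the Fcgr1 start was −0.98 (limma adjusted p = 0.0997) and that of Cd33 −0.94 (limma adjusted p = 0.0876). With list length as a covariate they were −1.37 (limma adjusted p = 0.0306) and −1.11 (limma adjusted p = 0.0730). Of the deposited files, 9 have a marking in their names whose meaning is not given in the sources used here, and these libraries alone gave −0.88 and −0.85 (limma adjusted p = 0.129 and 0.0958), so both lost the 0.05 level there. With a library left out in turn, the adjusted p of Fcgr1 was over 0.05 without young WT replicate 2 or 3, young Mlkl-/- replicate 1 or 2 or aged Mlkl-/- replicate 2, and that of Cd33 without young WT replicate 2, young Mlkl-/- replicate 1, aged WT replicate 1 or aged Mlkl-/- replicate 1 or 2. Those values lay between 0.0508 and 0.0691 (limma).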

How the data were processed

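The submitters' processing notes name Bowtie2 2.5.3 for mapping, with the genome mm10, and MACS2 2.2.7.1 for peaks, which the authors called in each library alone. The deposited files list summits, each scored as the −log10 q-value of its peak. Depth and background of a library enter this score, so it served here only to filter (3 or more, a q-value of 0.001 or less) and rank summits within a list. The lists hold no counts, and no count model was used. The read counts for which the study used edgeR 3.30.3 and bedtools 2.31.0 were not used here.

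Windows of 250 bp each side were merged over 12 lists. Each list was cut to its 35714 highest summits (ties were ordered by a seeded random draw), and the 52263 regions called there were ranked and turned into normal scores. Those with a call in 3 or more lists (37886) were compared with limma 3.58.1 (R 4.3.3) in 1 fit with 7 contrasts. P-values were adjusted by Benjamini-Hochberg over all these regions, and the threshold was 0.01. The fit was also run on simulated lists that, unlike the lists here, did not differ in length or noise. No result here rests on that run. Starts, gene bodies and exons came from the GENCODE vM21 basic annotation. Groups came from the sample titles. The labels do not say which mice went into a pool, so p-values measure only the spread between pooled samples. Tables and plots used Python 3.11.15, numpy 2.4.6, pandas 2.3.3 and matplotlib 3.10.9.

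Members, gene lists and tests were chosen with earlier results of these data known. Regions were named by rule: the start region of each member, those with an adjusted p under 0.05, the 5 highest distal regions, regions of smallest p for age without overlap, the 3 of smallest p for each genotype contrast, and regions called in all lists of 1 group and none of another. Other regions were named after their values were seen. Alternatives changed the minimum score (all deposited scores, or 5), list length, windows (100 bp), minimum of calls (6 lists), ranks (percentiles), the fit (separate fits, a replicate block, covariates), libraries (each left out, or the 9 with marked file names), the threshold (0.05) and the assignment (2 kb, 500 bp for starts, or the nearest start). Results for some genes of the lists are not reported here.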

Additional observations from a re-analysis of the deposited data

Results flagged for a closer look

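Ms4a3 had no region with a score of 3 or more in its window. Among the summits with lower scores, which the comparisons did not use, 1 lay there, in 1 of the 12 lists, with a score of 2.95. The windows of the other 4 members without a region held 0 such summits.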

How the results depend on the processing

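For age over both genotypes, the count of member regions past an adjusted p of 0.01 was 0. It was 1 with scores of at least 5 (the start of Cd33), 1 with lists of unequal length (the start of Fcgr1), 1 when regions were assigned by the nearest start, 2 at an adjusted p under 0.05, and 0 to 2 when each library was left out in turn. The 2 came from leaving out aged Mlkl-/- replicate 3, without which the starts of Fcgr1 and Cd33 changed by −1.16 and −1.08 (limma adjusted p = 0.00818 and 0.00875). For the other 6 contrasts the count stayed at 0 under every alternative run, those leaving out a library included. The number of members with a start called in all 12 lists was 8 with lists of unequal length. The difference between aged and young lists in member regions called, −9.50 over both genotypes, was 2.00 with lists of unequal length (aged lists are longer) and −11.2 to −8.17 with a library left out. In WT it was −8.33, 6.00 with lists of unequal length and −11.7 to −5.67 with a library left out. In Mlkl-/- it was −10.7, −2.00 with lists of unequal length, −6.67 with 2 kb on each side and −12.7 to −9.17 with a library left out. All 17 changes of named regions kept their sign. Same-numbered replicates were not paired (1 of 18 pairs of libraries had a correlation of deviations over 0.1, range −0.32 to 0.14), and with a replicate block 0 member regions passed in each of the 7 contrasts. Depth is unknown, so a region that was not called was not detectable in that list, which does not show that it was closed.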

Other observations

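A region outside the 10-kb window came up when regions were given to the nearest start. It lay 21.1 kb from the start of Ngp, a neutrophil granule gene, in an intron of Klhl18 (chr9:110440517-110441110). Equal-length lists held it in 6 of 6 young libraries and in 0 of 6 aged ones, and full lists in 6 and 3. Normal scores lay between −0.09 and 0.77 in young libraries and between −0.82 and −0.75, without a call, in aged libraries. The change with age was −1.24 ± 0.23 (SE, limma adjusted p = 0.00143). The region passed the filter through young lists alone, and all its aged values are those of a region without a call. Its p-value is therefore a description, and the share of all regions with such a pattern is not given here. Which gene the region serves was not tested.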
